A study of Mus musculus with 12 samples.

Results

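Liver gene expression was compared between mice that lack Pml (KO) and mice that carry it (wt) 2 h after an injection of acetaminophen (APAP). All arrays labelled KO at 2 h or wt at 2 h were taken, 2 of each genotype and 4 of the 12 arrays of the study. The comparison ran over every probe set with exactly 1 gene symbol and a mean log2 intensity of at least 5, which gave 19236 probe sets for 17052 genes. All mice were female BALB/cByJ aged 2.5 months, and the Pml wt and Pml KO mice at 2 h had both received 300 mg/kg APAP intraperitoneally in warmed PBS. The remaining arrays were from liver of both genotypes without APAP or 6 h after the same dose, 2 arrays a group, and served to estimate the spread and to show how the difference at 2 h compared with the other conditions. Untreated mice were killed without APAP, with no vehicle injection mentioned in the labels. The labels name neither the deleted part of Pml nor the origin of the KO line. Nor do they say that each sample is a separate animal, so the p-values reflect the spread among samples only, which may be technical.

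PML builds the PML nuclear bodies, nuclear structures rich in the modifier SUMO that hold partners such as DAXX and SP100 and are known from p53, interferon and oxidative stress responses. APAP becomes toxic when cytochrome P450 enzymes turn it into a quinone imine, which uses up glutathione and binds to proteins in the hepatocytes near the central vein. Damaged proteins activate the heat shock factor HSF1, which binds heat shock elements in the promoters of chaperone genes, and oxidants and electrophiles activate NRF2. Cholesterol synthesis genes are controlled in liver by the transcription factor SREBP2.

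Total RNA was measured on Affymetrix Mouse Gene 1.1 ST arrays. Values are log2 of the normalized intensity, differences are KO minus wt on that scale, and errors after ± are standard errors of the limma fit with 2 arrays a group. A probe set was called at an adjusted p under 0.05, adjusted over all 19236 probe sets, and a gene with several probe sets is represented by the brightest. Both KO arrays at 2 h had lower medians over the tested probe sets (6.89 and 6.93) than both wt arrays (7.08 and 7.09), and the median difference over all probe sets was -0.104, against -0.011 untreated and 0.01 at 6 h. The first principal component of these 4 arrays held 62.8% of their variance and separated the genotypes, with wt at -20.3 and -21.9 and KO at 30.9 and 11.3. Hepatocyte markers were among the brightest genes, with albumin (Alb) at 13.40 and 13.44 in wt and 13.39 and 13.42 in KO. None of the 11 measured hepatocyte markers was called. Over all genes 0.457% were called higher and 1.81% lower, so 0 calls in 11 is little different.

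At 2 h, 87 probe sets were higher in KO than in wt liver and 373 were lower, which is 0.452% and 1.94% of those tested. By gene this was 78 higher and 309 lower (0.457% and 1.81%), of which 37 and 44 changed at least 2-fold (0.217% and 0.258%). The genes that rose included heat shock proteins, cholesterol synthesis genes, some immediate early genes and the NRF2 target Hmox1, and the genes that fell lay at lower levels than those that rose. Of the probe sets called lower, 173 of 373 had a mean log2 under 7, against 22 of the 87 called higher, and their median levels were 7.1 and 8.7. How many lay on each side depended on the scaling of the arrays: 18.9% of calls were higher as deposited, 50.9% after quantile normalization (141 higher and 136 lower) and 73.8% after centring each array on its median (206 and 73). In all 460 probe sets called as deposited the arrays of the genotypes did not overlap, so non-overlap adds nothing to a call. Of all 17052 genes, 2345 stood higher and 7096 lower in KO without overlap. Calls also depended on single arrays, with 7 higher and 17 lower without wt replicate 1, 4 and 6 without wt replicate 2, 9 and 16 without KO replicate 1 and 204 and 780 without KO replicate 2.

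**Figure D1:**
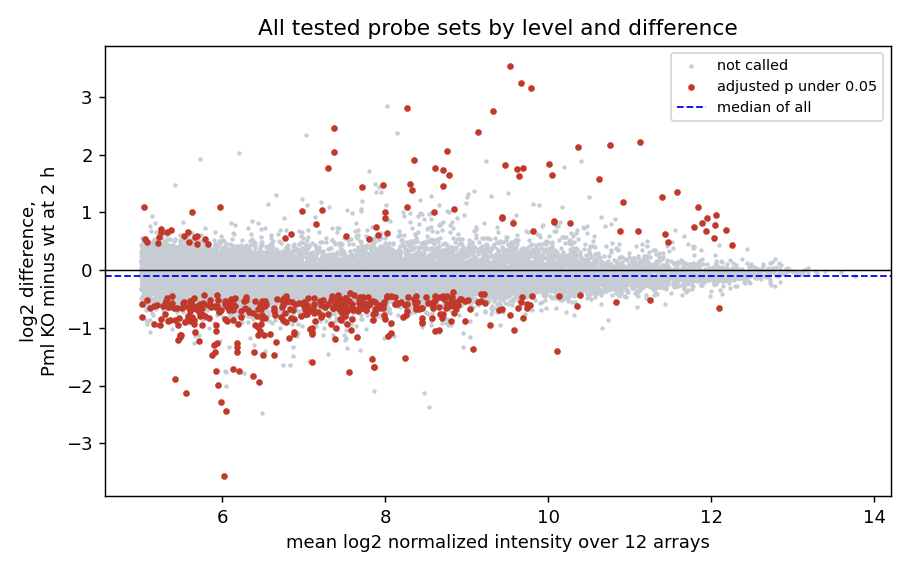
Each point is a tested probe set, with its mean log2 normalized intensity over 12 arrays on the horizontal axis and its log2 difference, Pml KO minus wt at 2 h, on the vertical axis. Called probe sets are red and the dashed line is the median of -0.104. The 373 called lower lie mostly at low and middle levels, as do the 19236 tested. Above a mean log2 of 10 lie 26 of the 87 called higher and 2025 of all tested.

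Pml itself was at 7.82 and 7.92 in the wt arrays at 2 h and at 7.11 and 7.50 in the KO arrays. Both KO arrays lay below both wt arrays, but the difference of -0.56 ± 0.24 did not pass (adjusted p = 0.178). Its single probe set may lie outside the deleted part, so it cannot check the labels. Of the 50 tested genes nearest to Pml on its chromosome, 0 were called higher and 1 was called lower (a predicted transcript). This was near the 0.457% and 1.81% of all genes. Their median was -0.168 against -0.099 for all genes. With an unadjusted test the whole table held 4712 probe sets at p under 0.05.

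Of the 18 measured heat shock genes, 7 were called higher in KO liver, and promoters of 3 of these are shown first because HSF1 binds heat shock elements. They were picked to show promoters with and without a match, and most promoters of the list held none. The first line is Hspb1, the largest chaperone difference, the second is Hspe1, and the third is Hsph1, which rose with no match to GAANNTTC. Each is the 250 bases before the gene's start (RefSeq, GRCm38.p6), printed 5′ to 3′ on the gene's strand, with matches to the heat shock element GAANNTTC in capitals.
Hspb1 (chr5:135887669-135887918, plus strand): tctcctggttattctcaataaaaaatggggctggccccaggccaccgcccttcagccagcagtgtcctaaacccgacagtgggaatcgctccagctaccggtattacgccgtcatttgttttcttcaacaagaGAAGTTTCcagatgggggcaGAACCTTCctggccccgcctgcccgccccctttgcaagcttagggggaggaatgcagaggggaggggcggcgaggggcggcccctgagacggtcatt
Hspe1 (chr1:55087898-55088147, plus strand): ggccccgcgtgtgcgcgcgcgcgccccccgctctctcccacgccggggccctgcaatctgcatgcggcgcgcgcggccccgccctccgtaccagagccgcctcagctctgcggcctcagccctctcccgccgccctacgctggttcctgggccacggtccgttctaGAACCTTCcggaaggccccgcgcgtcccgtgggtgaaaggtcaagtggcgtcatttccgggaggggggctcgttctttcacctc
Hsph1 (chr5:149636337-149636586, minus strand): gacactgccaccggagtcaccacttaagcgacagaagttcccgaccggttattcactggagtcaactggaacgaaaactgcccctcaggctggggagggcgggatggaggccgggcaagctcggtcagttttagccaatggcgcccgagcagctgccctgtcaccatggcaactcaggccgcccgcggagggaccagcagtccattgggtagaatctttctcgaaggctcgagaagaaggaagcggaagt
Between match and start lie 89 and 109 bases in Hspb1 and 76 bases in Hspe1. Of the 18 measured genes on the heat shock list, 15 had a promoter in the RefSeq table. The motif GAANNTTC, which reads the same on both strands, stood in 4 of these (26.7%): Hspb1, Hspe1, Dnaja1 and Fkbp4. The motif stood in 5.5% of the 13417 tested genes with a promoter and in 6.8% of all 27025 promoters of that length. Among genes called at 2 h it stood in 12.7% of 63 that were higher and in 5.5% of 238 that were lower. The promoter of Bag3 held no match to GAANNTTC in this window. Other motifs were searched in the heat shock, cholesterol and immediate early lists as well. Among 25 immediate early promoters the antioxidant response element TGACNNNGC stood in 28.0%, against 11.5% of tested genes. The AP-1 site TGANTCA stood in 0.0% of them, against 5.5%.

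Among the heat shock genes 7 of 18 rose and 0 fell, against 0.457% of all genes called higher and 1.81% called lower. Their median difference was 0.84, against -0.099 for all genes. All 18 lay above 0 as deposited, after quantile normalization and after centring, against 6179, 9022 and 12022 of all 19236 probe sets. Hspb1, a small heat shock protein that holds unfolded proteins, was at 8.57 and 8.45 in wt and at 12.40 and 10.93 in KO. Both KO arrays lay far above the wt arrays, a 8.91-fold difference (3.16 ± 0.37, adjusted p = 0.00564). A second bright probe set of Hspb1 differed by 3.25, and a dim one by 0.04. Bag3, a co-chaperone of HSP70 that directs damaged proteins to autophagy, was at 8.03 and 8.25 in wt and at 11.50 and 10.27 in KO (2.75 ± 0.59, adjusted p = 0.0439), and was not called after quantile normalization. Hsph1, an HSP110 chaperone, was at 9.60 and 10.10 in wt and at 12.27 and 11.75 in KO (2.16 ± 0.31, adjusted p = 0.0157). In each of these genes the arrays of the genotypes did not overlap, as in every called probe set.

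The cytosolic chaperone Hsp90aa1 rose by 0.96 ± 0.14 (11.59 and 11.75 in wt, 12.72 and 12.54 in KO) and its 2 other probe sets by 0.90 and 1.10. The mitochondrial chaperonin pair Hspd1 and Hspe1 rose by 0.69 ± 0.13 and 0.67 ± 0.12, and the HSP40 co-chaperone Dnaja1 by 0.79 ± 0.17 (its dimmer probe set stood at 0.76, adjusted p = 0.0809). Not every chaperone passed. The HSP40 gene Dnajb1 stood at 1.89 ± 0.44 (adjusted p = 0.0507) and the constitutive HSP70 gene Hspa8 at 0.12 ± 0.12 (adjusted p = 0.556). Outside the list, the HSP40 gene Dnaja4 was at 7.13 and 7.07 in wt and 10.73 and 9.10 in KO (2.81 ± 0.48, adjusted p = 0.0253). Zfand2a, a stress-induced partner of the proteasome, was at 10.31 and 10.61 in wt and 12.92 and 12.42 in KO (2.21 ± 0.23, adjusted p = 0.00401). The count of 7 became 0, 0 and 1 without wt replicate 1, wt replicate 2 or KO replicate 1, and 13 without KO replicate 2, whose chaperone values were below those of KO replicate 1. Hspa1a, Hspa1b, Hsp90ab1 and Cryab were not among the tested genes.

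The mean log2 intensity of the 18 heat shock genes was 10.02 and 9.70 in untreated wt liver and 10.15 and 9.98 in untreated KO liver. It reached 10.37 and 10.53 in the wt arrays at 2 h but 11.86 and 11.24 in the KO arrays. By 6 h the wt arrays stood at 11.53 and 11.79, beside KO arrays at 11.98 and 11.49. The genotypes were thus apart at 2 h and overlapped at 6 h. The median genotype difference was 0.24 untreated and 0.13 at 6 h, with 0 members called in either. By the interaction test, the change of the genotype difference from untreated to 2 h was called in 0 of the 18 genes (0.0293% of all genes). For 6 of the 18 genes the difference at 2 h was larger than that at 6 h by the same test, against 2.06% of all genes. It was 3.51 larger for Bag3 (adjusted p = 0.0396), 2.13 for Hspb1 (adjusted p = 0.0423) and 2.40 for Hsph1 (adjusted p = 0.0217).

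**Figure D2:**
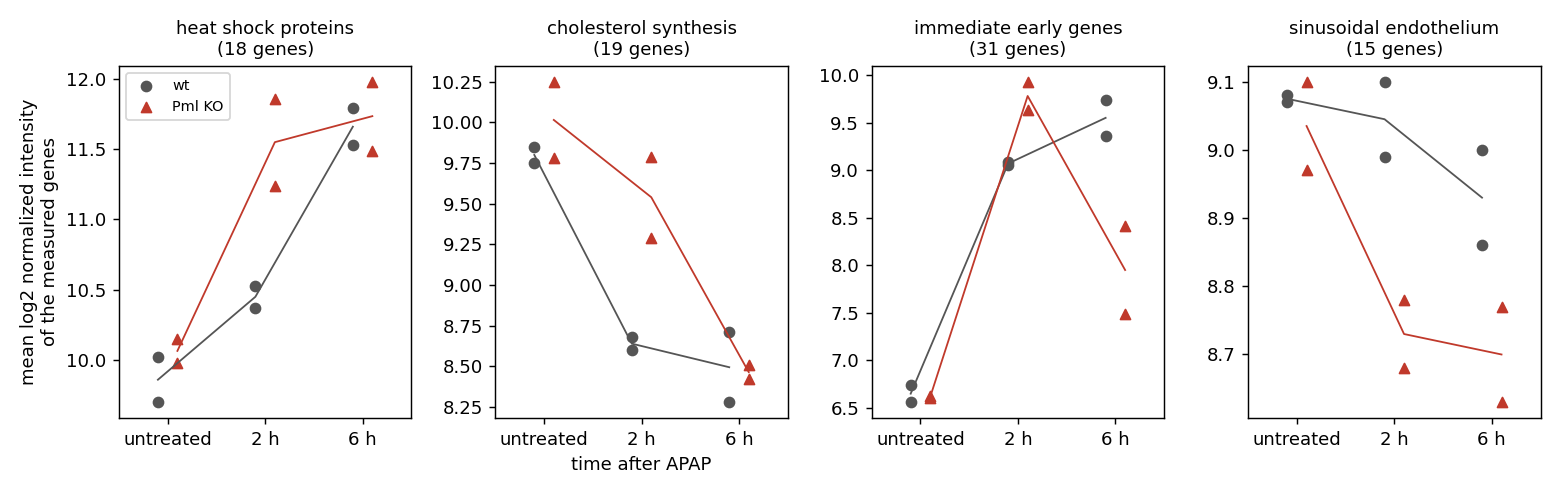
Mean log2 normalized intensity of the measured members of 4 gene lists in each array, by condition, with wt arrays as circles and Pml KO arrays as triangles, and lines through the means of 2 arrays. The vertical axes differ and do not start at 0; heat shock proteins were at 10.37 and 10.53 in wt and 11.86 and 11.24 in KO at 2 h, and cholesterol synthesis genes at 8.60 and 8.68 in wt and 9.79 and 9.29 in KO.

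Cholesterol synthesis genes also stood higher in KO liver at 2 h. Of 19 measured members 6 rose and 0 fell, against 0.457% and 1.81% of all genes, at a median of 0.79 against -0.099. All 19 lay above 0 as deposited, after quantile normalization and after centring. Of all 19236 probe sets 6179, 9022 and 12022 did so under these scalings in turn. Sqle, the squalene epoxidase that catalyses a rate-limiting oxygenation step, was at 7.04 and 7.52 in wt and at 9.88 and 8.80 in KO (2.06 ± 0.46, adjusted p = 0.0478), and lost its call after quantile normalization. Idi1, which isomerises isopentenyl diphosphate, was at 8.74 and 8.92 in wt and at 10.91 and 10.28 in KO (1.77 ± 0.30, adjusted p = 0.0247). Cyp51, the lanosterol demethylase, was at 7.45 and 7.83 in wt and at 9.64 and 9.17 in KO (1.76 ± 0.34, adjusted p = 0.0339). Msmo1, the methylsterol oxidase that follows it, was at 9.004 and 9.132 in wt and at 10.934 and 10.508 in KO (1.65 ± 0.24, adjusted p = 0.0157). The arrays of the genotypes did not overlap in any of these genes, as in every called probe set. Insig1, which retains the SREBP complex in the endoplasmic reticulum, rose by 1.19 ± 0.24 (not called after quantile normalization) and the sterol carrier Stard4 by 1.09 ± 0.16. Hmgcs1, HMG-CoA synthase, did not pass (0.48 ± 0.29, adjusted p = 0.328), and neither did the regulator Srebf2 (0.53 ± 0.20, adjusted p = 0.136).

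The levels show how this difference lay between the conditions. The mean log2 intensity of the 19 cholesterol genes was 9.75 and 9.85 in untreated wt liver and 9.78 and 10.25 in untreated KO liver. It was down to 8.60 and 8.68 in the wt arrays at 2 h, while the KO arrays stood at 9.79 and 9.29. By 6 h the genotypes had come together, with wt at 8.28 and 8.71 and KO at 8.51 and 8.42. At 2 h both KO arrays lay above both wt arrays, and the genotypes overlapped untreated and at 6 h. From untreated to 2 h, 15 of the 19 genes fell in wt and 8 fell in KO, against 6.16% and 20.9% of all genes, and these responses share arrays with the genotype comparison. Msmo1 fell by 1.38 in wt (adjusted p = 0.00495) and stood at 0.01 in KO (adjusted p = 0.98). The change of the genotype difference from untreated to 2 h was called in 0 of the 19 genes (0.0293% of all genes). A larger difference at 2 h than at 6 h was called in 3 (2.06% of all genes). The count of 6 became 0 without wt replicate 1, wt replicate 2 or KO replicate 1, and 11 without KO replicate 2. The sterol element TCACNCCAC, searched after these values were seen, stood in 1 of the 15 promoters of the list (6.7%, Hmgcs1) and in 1.0% of tested genes. The heat shock motif GAANNTTC stood in 2 of these 15 (13.3%) and in 5.5% of tested genes.

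Immediate early genes, the transcription factors and signalling genes that a stimulus induces before new protein is made, stood higher in KO liver at 2 h in 25 of 31 measured members. Over all genes 5606 of 17052 stood higher. Of the 31 members 4 rose past the test and 0 fell, against 0.457% and 1.81% of all genes, at a median of 0.59 against -0.099. Egr2, a zinc finger transcription factor, was at 7.88 and 8.35 in wt and at 10.41 and 10.75 in KO, a 5.53-fold difference (2.47 ± 0.25, adjusted p = 0.00401). Fos, a subunit of the AP-1 transcription factor, was at 9.47 and 9.74 in wt and at 11.29 and 11.45 in KO (1.76 ± 0.32, adjusted p = 0.0298). Ccn1, a matricellular protein that cells secrete early after a stimulus, was at 9.71 and 10.00 in wt and at 11.71 and 11.63 in KO (1.82 ± 0.35, adjusted p = 0.0331). The genotypes did not overlap in these genes, as in every called probe set. The partners Jun and Junb stood at 0.59 ± 0.38 and 0.75 ± 0.30, Egr1 at 0.36 ± 0.45 and Dusp1 at 0.08 ± 0.51, none of them called. The count of 4 was 1 without either wt array and 2 without either KO array.

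The order of the genotypes in these genes was the opposite at 6 h. Fos was at 10.12 and 9.02 in wt and at 5.61 and 5.00 in KO liver at 6 h (-4.26, adjusted p = 0.000191), and its difference at 2 h exceeded that at 6 h by 6.02 (adjusted p = 0.000867). Egr2 was at 8.59 and 8.01 in wt and 6.64 and 5.95 in KO at 6 h, a change of the genotype difference of 4.48 (adjusted p = 0.00104). For 20 of the 31 genes the difference at 2 h was larger than at 6 h (2.06% of all genes). At 6 h 1 was higher and 19 lower in KO (4.11% and 4.95% of all genes). Untreated, 0 were called (0.00586% of all genes) and the median was -0.09. A change of the genotype difference from untreated to 2 h was called in 0 of the 31 genes (0.0293% of all genes). Myc, the growth regulator, rose at 2 h (8.23 and 8.33 in wt, 10.62 and 10.75 in KO, 2.40 ± 0.44, adjusted p = 0.031), but it was also at 8.09 and 9.36 in untreated KO liver against 6.33 and 6.88 in untreated wt liver (adjusted p = 0.671). Its genotype difference at 2 h exceeded that of untreated liver by 0.28 (adjusted p = 0.86).

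**Figure D3:**
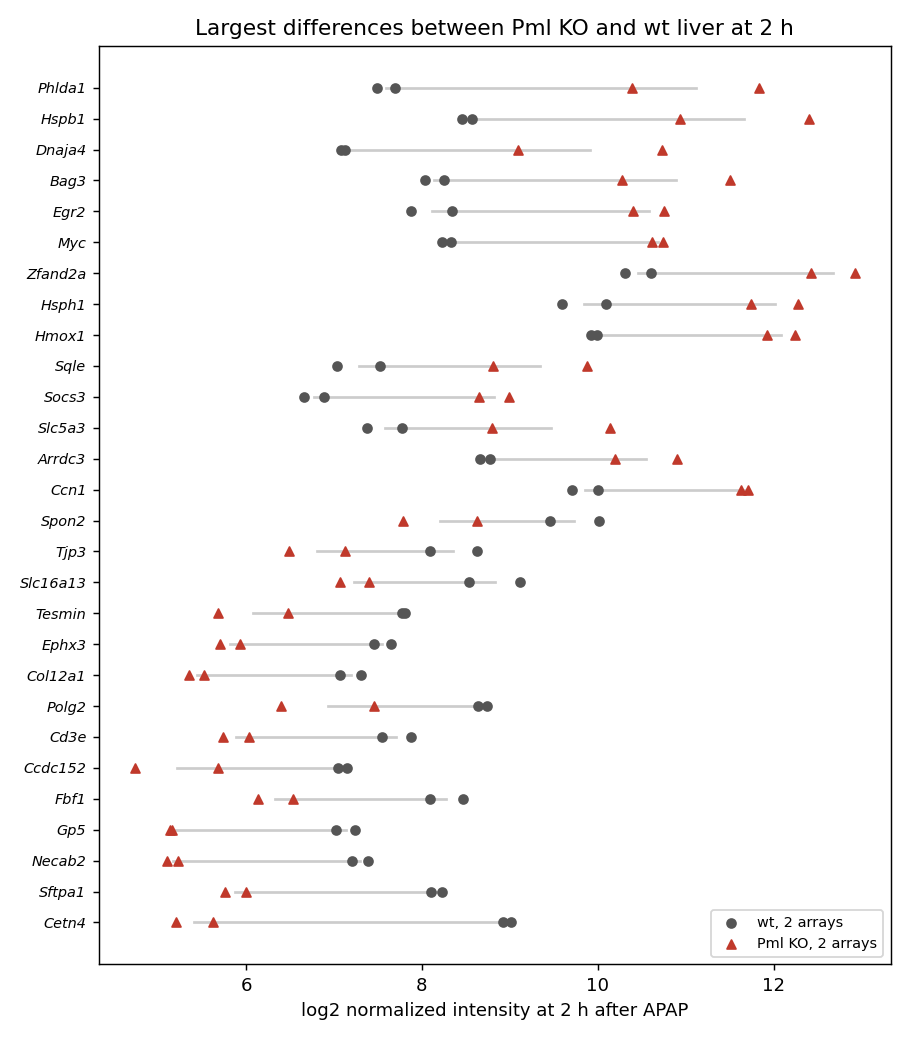
Log2 normalized intensity at 2 h of the 14 genes with the largest rises and the 14 with the largest falls in Pml KO against wt liver, with wt arrays as grey circles, KO arrays as red triangles and a line between the group means. The arrays of the genotypes do not overlap in any row, since the genes were chosen that way; KO replicate 1 lies above KO replicate 2 in Hspb1 (12.40 and 10.93) and Bag3 (11.50 and 10.27).

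The largest rise of all was that of Phlda1, a pleckstrin homology-like protein of growth factor and stress responses. It was at 7.48 and 7.69 in wt and at 11.83 and 10.39 in KO, a 11.5-fold difference (3.53 ± 0.54, adjusted p = 0.0192). Untreated, Phlda1 was at 8.18 and 8.71 in wt and 9.69 and 9.72 in KO, and at 6 h the order of the means was turned (10.74 and 10.77 in wt, 10.51 and 8.63 in KO). Slc5a3, the myo-inositol transporter, rose by 1.90 ± 0.42 (7.38 and 7.77 in wt, 10.14 and 8.80 in KO). Arrdc3, an arrestin-like regulator of receptor turnover, was at 8.77 and 8.65 in wt and at 10.90 and 10.20 in KO (1.84 ± 0.23, adjusted p = 0.00886). Without APAP the order of Arrdc3 was the reverse, at 11.21 and 11.22 in wt and 9.52 and 9.77 in KO.

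Among the 36 measured NRF2 targets 3 rose and 0 fell, against 0.457% and 1.81% of all genes, at a median of 0.06 against -0.099 for all genes. Hmox1, heme oxygenase 1, was at 9.99 and 9.93 in wt and at 12.25 and 11.92 in KO, a 4.37-fold difference (2.13 ± 0.24, adjusted p = 0.00544). Osgin1, an oxidative stress-induced growth inhibitor, rose by 1.27 ± 0.20 (10.88 and 10.91 in wt, 12.20 and 12.13 in KO) and the thioredoxin reductase Txnrd1 by 0.81 ± 0.13 (9.84 and 9.90 in wt, 10.62 and 10.76 in KO). In each of the 3 genes the genotypes did not overlap, as in every called probe set. The glutathione synthesis genes Gclc and Gclm stood at 0.37 ± 0.12 and 0.42 ± 0.12 (adjusted p = 0.112 and 0.0731), and Nqo1 at -0.40 ± 0.26 (adjusted p = 0.371). The count was 3 after quantile normalization too and 5 after centring. It was 0 without wt replicate 1, wt replicate 2 or KO replicate 1.

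No gene of the 18 measured for glutathione synthesis and recycling, or of the 18 measured for APAP disposition, was called in limma. Over all genes 0.457% were called higher and 1.81% lower, so 0 calls in lists of this size are little different. An unadjusted limma p was under 0.05 in 6 and 3 of the 18 genes, and in 4712 of all 19236 probe sets. These counts of 0 depended on the setting: after centring 1 gene of each list was called higher, with a variance trend 1 glutathione gene was higher and 1 lower, and without KO replicate 2 these were 1 and 2. Cyp2e1, the main enzyme that activates APAP, was at 13.16 and 13.22 in wt and at 13.12 and 13.20 in KO (-0.03 ± 0.09, adjusted p = 0.864, with a 95% interval of -0.23 to 0.17, and a difference of 0.14 after centring). Cyp1a2, which also oxidises APAP, stood at 0.12 ± 0.16 and the UDP-glucose dehydrogenase Ugdh, which supplies the sugar for glucuronidation, at 0.48 ± 0.14 (adjusted p = 0.0756). Perivenous and periportal hepatocyte genes were called in 0 of 22 and 0 of 16, at medians of -0.03 and -0.04. The 23 genes of the JNK pathway and its phosphatases, the 23 of the integrated stress response, the 19 endoplasmic reticulum chaperones and the 24 metallothionein and acute phase genes also held 0 calls. The unadjusted p was under 0.05 in 3, 3, 3 and 0 of them, and the first 3 lists held 1 or 2 calls without KO replicate 2.

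In IL-6 type signalling 2 of 18 genes rose and 0 fell, against 0.457% and 1.81% of all genes, at a median of 0.29. Socs3, the feedback inhibitor of the receptor, was at 6.66 and 6.88 in wt and at 8.99 and 8.65 in KO (2.05 ± 0.21, adjusted p = 0.00401), and a dimmer probe set of it stood at 0.53 (adjusted p = 0.0608). The oncostatin M receptor Osmr rose by 0.61 ± 0.13. The count of 2 was 1 without wt replicate 1, wt replicate 2 or KO replicate 1, and 4 without KO replicate 2. Il6 itself, near the lower end of the tested levels, was at 5.91 and 5.76 in wt and 6.00 and 6.07 in KO. At 6 h the order of Socs3 was turned, at 9.14 and 8.51 in wt and 7.29 and 7.69 in KO (-1.33, adjusted p = 0.00813). On the interferon list 2 of 30 genes were called higher and 0 lower, against the same shares of all genes, and the median was 0.23, against 0.25 untreated. The risers were the transcription factors Irf1 (0.91 ± 0.15) and Irf9 (0.82 ± 0.12). A dimmer probe set of Irf1 stood at -0.07 (adjusted p = 0.777), and Ifit1, an interferon-induced antiviral gene, stood at 0.58 ± 0.33 at 2 h and 1.10 untreated. Without wt replicate 1, wt replicate 2 or KO replicate 1 the count was 0, and 3 without KO replicate 2. The 26 inflammatory genes and the 20 partners of PML nuclear bodies held 0 calls, with Daxx at 0.22 ± 0.17 and Sp100 at -0.04 ± 0.22.

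**Figure D4:**
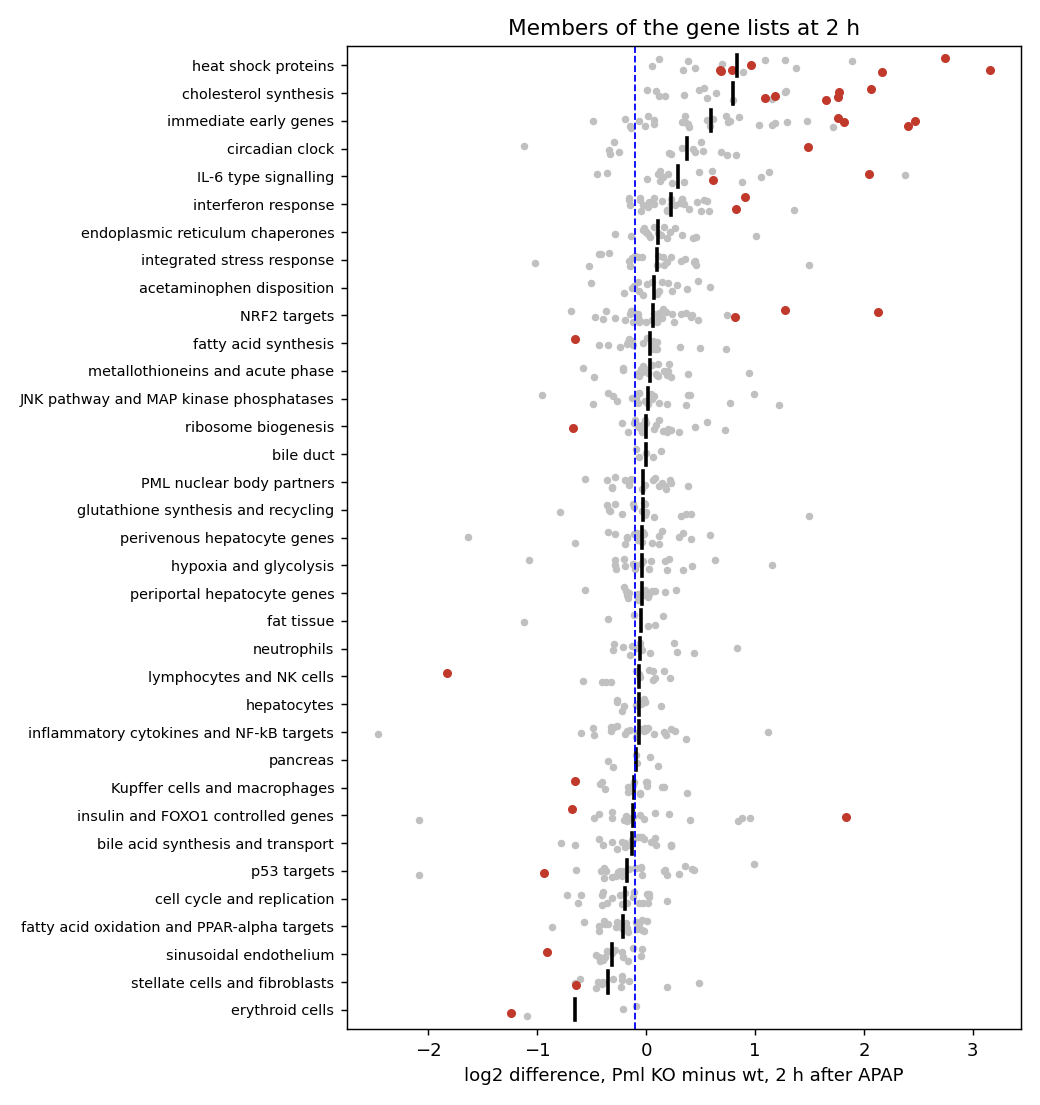
Each point is a measured member of a gene list, with its log2 difference, Pml KO minus wt at 2 h, on the horizontal axis; red points passed an adjusted p under 0.05, black bars are list medians and the dashed line is the median of all genes (-0.099). Lists are ordered by median, from 0.84 for heat shock proteins and 0.79 for cholesterol synthesis to -0.65 for erythroid cells, of which 4 genes were measured.

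The falls were led by Cetn4, a centrin of basal bodies. It was at 8.93 and 9.02 in wt and at 5.20 and 5.62 in KO, 11.8-fold lower (-3.56 ± 0.17, adjusted p = 1.54e-05). Another probe set of Cetn4 stood at only -0.60 (means of 6.31 in wt and 5.71 in KO, adjusted p = 0.0486). Over 12 arrays the probe set used averaged 6.02 and the other 5.82. The one used was brighter through its wt arrays after APAP, so the size of this fall depends on the probe set. Untreated, Cetn4 was at 4.64 and 4.85 in wt and 4.48 and 4.42 in KO, and from untreated to 2 h it rose by 4.23 in wt and by 0.96 in KO. The wt arrays at 6 h still held 7.97 and 8.18, and the KO arrays 4.64 and 4.26. Sftpa1, known as a surfactant protein of lung, was at 8.23 and 8.10 in wt and at 5.76 and 5.99 in KO (-2.29 ± 0.20, adjusted p = 0.00258). Col12a1, a collagen of the fibril surface, was at 7.07 and 7.31 in wt and at 5.35 and 5.52 in KO (-1.75 ± 0.13, adjusted p = 0.000829), with 5.23 and 5.34 in untreated wt and 5.73 and 5.49 in untreated KO liver. In these 3 genes the KO arrays at 2 h lay below the wt arrays with no overlap, as in every probe set called lower. Cetn4 kept its call under every alternative in which it was tested.

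The other large falls were of genes with varied functions. The calcium-binding gene Necab2 was at 7.21 and 7.39 in wt and 5.10 and 5.23 in KO, and the platelet glycoprotein Gp5 at 7.24 and 7.03 in wt and 5.14 and 5.16 in KO. Fbf1, a ciliary protein, fell by 1.94, the coiled-coil gene Ccdc152 by 1.89 and the mitochondrial polymerase subunit Polg2 by 1.76. Ephx3, an epoxide hydrolase, fell by 1.74, Tesmin by 1.71, the monocarboxylate transporter Slc16a13 by 1.60, the tight junction protein Tjp3 by 1.55 and the secreted matrix protein Spon2 by 1.53. Adjusted p over these 10 genes was 0.00401 to 0.0448 in limma, and Necab2, Ccdc152 and Spon2 were not called after quantile normalization or centring. A further 8 higher and 24 lower genes were predicted transcripts or small RNAs and are counted only.

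Markers of sinusoidal endothelium and of stellate cells and fibroblasts had medians below that of all genes at 2 h, and in bulk liver fewer cells of a type and less RNA per cell cannot be told apart. Of 15 sinusoidal endothelial markers 0 rose and 1 fell, against 0.457% and 1.81% of all genes, at a median of -0.31 against -0.099. Both KO arrays lay below both wt arrays in 12 of the 15, against 41.6% of all genes. Bmp2, the endothelial signal to hepatocytes that controls iron balance, was at 8.35 and 8.38 in wt and at 7.41 and 7.50 in KO (-0.91 ± 0.10, adjusted p = 0.00485). The median was -0.18 after quantile normalization and -0.14 after centring. The scavenger receptor Stab2 stood at -0.44 ± 0.12 (adjusted p = 0.0744), while Eng and Cdh5 stood at -0.04 ± 0.12 and -0.04 ± 0.15, and both lay above 0 after quantile normalization and centring. After centring 4 of the 15 endothelial markers lay above 0, against 0 as deposited. Of 14 markers of stellate cells and fibroblasts 1 fell, at a median of -0.35 (-0.25 and -0.17 under the same scalings), and that one, Hand2 (-0.64 ± 0.14, adjusted p = 0.0497), was not called under either. Summed intensities of the markers at 2 h were 10381 and 9675 in wt and 8283 and 8749 in KO for endothelium, and 7630 and 7578 in wt and 6150 and 7090 in KO for stellate cells.

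The T cell receptor gene Cd3e was at 7.88 and 7.54 in wt and at 5.74 and 6.03 in KO (-1.83 ± 0.19, adjusted p = 0.00401). No other of the 14 lymphocyte markers was called, against 0.457% of all genes called higher and 1.81% called lower. The wt arrays summed to 1280 and 1147 over these markers, and the KO arrays to 960 and 1072. Cd68, a lysosomal protein of macrophages, fell by 0.65 (8.85 and 8.65 in wt, 7.95 and 8.24 in KO), and the erythrocyte anion exchanger Slc4a1 by 1.24 (7.27 and 7.67 in wt, 6.01 and 6.44 in KO). Both were not called after quantile normalization or centring. Neutrophil markers held 0 calls in 14 genes, little different from the shares of all genes, with summed intensities of 2323 and 2388 in wt and 1957 and 2485 in KO. Kupffer cell and macrophage markers summed to 7950 and 7076 in wt and 7808 and 6999 in KO. The median differences of the Kupffer cell, neutrophil and lymphocyte lists were -0.115, -0.055 and -0.063 as deposited and 0.06, 0.121 and 0.112 after centring, when 13 of 17, 11 of 14 and 9 of 14 markers lay above 0. The part of these cells in the genotype difference was not tested.

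Lists of p53 targets, metabolism, the clock and ribosome biogenesis held at most 2 called genes each, against 0.457% of all genes called higher and 1.81% called lower. A single call in lists of this size is little different from these shares. The p53 list (28 genes) held no riser and 1 gene that fell, the death receptor gene Fas (8.04 and 8.33 in wt, 7.09 and 7.41 in KO, -0.93 ± 0.18, adjusted p = 0.0341), which was not called after quantile normalization or centring. The p53 target Cdkn1a, the cell cycle inhibitor p21, stood at -0.22 ± 0.66 (adjusted p = 0.866). Scd1, the stearoyl-CoA desaturase, fell by 0.65 (adjusted p = 0.0249), 1 of 22 fatty acid synthesis genes. Klf15, a fasting-induced transcription factor, fell by 0.68 (adjusted p = 0.0336), the clock gene Per2 rose by 1.49 ± 0.32 (7.76 and 7.40 in wt, 9.65 and 8.49 in KO) and the nucleolar acetyltransferase Nat10 fell by 0.67. Scd1, Klf15 and Nat10 were not called after centring. Fatty acid oxidation genes and PPAR-alpha targets held 0 calls in 26 genes. Their median was -0.21 as deposited, -0.19 after quantile normalization and -0.04 after centring. As deposited 25 of the 26 lay below 0, against 11443 of all 17052 genes, and their untreated median was -0.20. Hypoxia genes (20), bile acid genes (22) and cell cycle genes (21) also held 0 calls.

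The untreated and 6 h arrays show when the genotypes differed, and they share no array with the comparison at 2 h. Untreated, 1 probe set was called (0.0052%), that of the stress gene Gadd45g, which was at 6.11 and 5.70 in wt and 8.59 and 9.63 in KO, and 761 had an unadjusted p under 0.05. At 6 h, 742 were higher and 950 lower (3.86% and 4.94%). Of the 87 probe sets higher at 2 h, 6 were also called higher at 6 h and 12 were called lower. Of the 373 lower at 2 h, 54 were also called lower at 6 h and 13 were called higher. The genotype difference at 2 h exceeded that of untreated liver in 2 probe sets and was below it in 4 (0.0104% and 0.0208%). These were Arrdc3 and the differentiation inhibitor Id2 (10.25 and 10.29 in wt, 11.88 and 11.38 in KO at 2 h), and Cetn4, Col12a1, Sftpa1 and the dimmer of 2 probe sets of Pdgfrl, a receptor-like protein. It was above that at 6 h in 402 and below it in 936 (2.09% and 4.87%).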

How the data were processed

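Liver RNA was measured with the Affymetrix Mouse Gene 1.1 ST array, 1 array a sample. Per the submitters' processing notes, RMA was run in Affymetrix Expression Console (version not named). The authors deposited normalized intensity values on a linear scale, with array medians of 79.9 to 90.1; log2 of the deposited intensity was taken here without a pseudocount. Of 35556 probe sets, 21218 carried 1 gene symbol in the platform annotation, 1881 several and 12457 none, and the last 2 classes were not used. All probe sets whose log2 averaged 5 or more over the 12 arrays entered 1 limma 3.58.1 fit (R 4.3.3, lmFit, eBayes with no trend) of 6 group means, with 6 residual and 4.21 prior degrees of freedom. The p-values are two-sided, with Benjamini-Hochberg adjustment over all tested probe sets within each of 7 comparisons. The number of arrays limits the precision.

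Groups were read from sample titles; 1 wt array at 2 h has a shortened title and was placed by its source name. The members, the 25 pathway and 10 marker lists and the alternatives were chosen with earlier results of these data known. Named genes are Pml, the 14 largest rises and 14 largest falls among called genes whose arrays do not overlap, and up to 4 members of a list with the smallest p; predicted genes and small RNAs were counted. Genes beyond this rule, such as Hspd1, Dnaja1, Insig1, Cyp2e1, Alb, Id2, Gadd45g and list members that were not called, were chosen after their values were seen, to complete counts or as known genes of the pathway. Replicate numbers were not taken as pairs in the reported fit. Same-numbered arrays of the genotypes had deviations that correlated at 0.145 untreated, -0.131 at 2 h and -0.021 at 6 h. With 2 arrays a group this cannot tell whether the numbers pair samples. Alternatives were quantile normalization, centring, other filters, 1 probe set a gene, log2 of the value plus 16, a variance trend, the compared groups only, a replicate block and single arrays left out. The fit was tested on simulated data.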

Additional observations from a re-analysis of the deposited data

Results flagged for a closer look

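The genotype difference at 2 h differed from that of untreated liver, by limma's interaction test, in 5 of the 80 genes named here (0.0293% of all genes). It was above it by 3.41 for Arrdc3 and 1.77 for Id2, and below it for Cetn4 (-3.27), Sftpa1 (-2.52) and Col12a1 (-2.07), all on the log2 scale. In Arrdc3 the KO arrays lay above the wt arrays at 2 h and below them untreated.

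The genotype difference at 2 h differed from that at 6 h, by the same test, in 32 of the 80 genes named, 25 above and 7 below, against 2.09% above and 4.87% below over all probe sets. Many of the 80 were named for their difference at 2 h, which is part of both tested changes, so these counts are a description. Among chaperone and stress genes it was above that at 6 h by 3.51 for Bag3, 2.99 for Dnaja4, 2.42 for Dnajb1, 2.13 for Hspb1, 2.40 for Hsph1, 0.94 for Hsp90aa1, 2.50 for Zfand2a, 2.80 for Hmox1, 1.89 for Osgin1 and 0.91 for Txnrd1. Among immediate early and signalling genes the change was 6.02 for Fos, 4.48 for Egr2, 4.25 for Myc, 3.65 for Egr1, 3.43 for Jun, 2.47 for Junb, 3.48 for Ccn1, 4.71 for Phlda1, 3.38 for Socs3, 1.53 for Osmr and 1.30 for Irf1. For the cholesterol genes it was 2.10 for Msmo1, 1.75 for Insig1 and 1.40 for Stard4. Among markers and falling genes it was 0.81 for Cdh5, -0.84 for Bmp2, -1.38 for Cd3e, -0.86 for Col12a1, -1.22 for Ephx3, -1.92 for Gp5, -0.87 for Nat10 and -1.45 for Tjp3. With 2 arrays a group, no array could be tested for standing apart from its own group.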

How the results depend on the processing

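All 28 genes with the largest differences kept their direction under each alternative in which they were tested. They were chosen for arrays that do not overlap, so only quantile normalization and centring could have turned a direction. For the other alternatives this outcome was fixed by the choice. Of the 80 genes named, 8 changed sign under some alternative, none of them called on either side: Alb, Cdh5, Cyp2e1, Eng and Sp100 after centring, all of these but Cyp2e1 after quantile normalization, and Daxx, Fkbp4 and Gadd45g only without 1 array. The probe sets higher and lower in KO at 2 h (87 and 373) numbered 141 and 136 after quantile normalization, 206 and 73 after centring (added after the data were seen), and 42 and 42 with only the compared groups. The lower ones numbered 564 at a mean log2 of at least 7, 640 with log2 of the value plus 16 and 528 with a variance trend, with 113, 126 and 114 higher. Leaving out 1 array gave 4 to 204 higher and 6 to 780 lower, with 140 and 577 without KO 6 h replicate 2. Of the 28 largest, 9, 8, 9 and 26 were called without wt replicate 1, wt replicate 2, KO replicate 1 or KO replicate 2, 23 after quantile normalization and 25 after centring. With the replicate number as a block, 30 were higher and 119 lower at 2 h, 24 of the 28 largest were called and 0 probe sets were called untreated. The count of risers was then 2 of the heat shock (7 as reported), 2 of the cholesterol (6) and 5 of the immediate early genes (4), and with the compared groups only 4, 3 and 8. Whether the number pairs samples is not known, and a crossed pairing at 2 h gave 58 and 174.

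The genotype difference at 2 h minus untreated (6 probe sets) was called in 1 at a mean log2 of at least 7, 12 with a variance trend, 22 with the compared groups only, 4 after quantile normalization and 2 to 42 without 1 array. That at 2 h minus 6 h (1338) was called in 737 after quantile normalization, 644 after centring, 76 with the compared groups only, 903 with no filter and 30 to 1986 without 1 array. The untreated comparison (1) gave 0 after quantile normalization, centring, with no filter, at the stricter filter, with log2 of the value plus 16, and 0 to 3 without 1 array. That at 6 h (1692) gave 197 with the compared groups only and 205 to 1781 without 1 array. With 2 arrays a group, leaving out 1 leaves the other assumed to vary like the remaining groups. The background of the arrays was not measured here, and 173 of the 373 falls had a mean log2 under 7. The median level of the falls was 7.1, against 7.06 for all tested probe sets.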
